A study of Mus musculus with 14 samples.

Results

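The genes examined lie on mouse chromosome 9 around Folr4, the gene now named Izumo1r: the inflammatory caspase genes Casp1, Casp4 and Casp12, the growth factor gene Pdgfd, Yap1, Birc2, Birc3, Mtmr2, Smco4 and Gria4. Counted in annotated genes from Folr4, Gria4 lies at place -104, Casp1, Casp4 and Casp12 at -96, -95 and -94, and Pdgfd at -90. Birc2, Birc3 and Yap1 lie at -66, -65 and -64, Mtmr2 at -29 and Smco4 at 27. These 10 genes were chosen by name from the segment around Folr4 on the basis of their measured signals in mutant against wild-type uteri. Every probe set whose only gene symbol is one of these 10 was used. This gave 18 probe sets of 34945 with a single symbol: 4 genes had 1 probe set, 4 had 2, and Pdgfd and Gria4 had 3. The signals of the genotypes are therefore given as a description, without a test. The tests concern folinic acid. They share arrays with the comparison of genotypes and were set with earlier results known, so they are not independent of the choice of genes.

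Uterus was collected at day 3.5 of gestation from C57BL/6 females and profiled on 14 one-colour arrays. The groups were Folr4-/- females given folinic acid (n = 4), Folr4-/- females given saline (n = 3), wild-type females given folinic acid (n = 3) and wild-type females given saline (n = 4). Folinic acid, a reduced folate, was injected into the peritoneum 2 times at 12.5 mg/kg, 10 and 3 days before mating. How the mutation was made, the strain it was made in, the number of backcrosses and the age of the females are not given in the sources used here.

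Caspases are proteases. Casp1 and its neighbours Casp4 and Casp12 form a cluster of inflammatory caspase genes. Casp1 is activated in inflammasomes and matures the cytokines encoded by Il1b and Il18, and Casp4 is activated by bacterial lipopolysaccharide in the cytosol and cleaves gasdermin D. Pdgfd is a secreted ligand of the receptor encoded by Pdgfrb and becomes active after proteolytic cleavage. Yap1 is the transcriptional co-activator held in check by the Hippo kinases, and Birc2 and Birc3 are ubiquitin ligases of the tumour necrosis factor receptor pathway. The uterus before implantation consists of epithelium, stroma, smooth muscle, vessels and resident leukocytes, and a whole-tissue array reads their sum.

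The start regions of Casp4, Pdgfd and Yap1 are shown because each has a probe set among the 3 with the lowest difference between mutant and wild type of the 13 tested. For Yap1 this is its dimmer probe set, while its brightest was slightly higher in mutants. Each sequence is RefSeq's for the C57BL/6J reference (GRCm38.p6), runs from 250 bases before to 50 bases after the annotated start, and was not read from the animals studied. Capitals mark matches, on either strand, to a TATA box (TATAAA), a GC box (GGGCGG), a TEAD site (GGAATG) and a kappa B site (GGGNNTTCC). The last of these was added after the Casp4 sequence had been read.
Casp4, chr9:5308599-5308898, plus strand: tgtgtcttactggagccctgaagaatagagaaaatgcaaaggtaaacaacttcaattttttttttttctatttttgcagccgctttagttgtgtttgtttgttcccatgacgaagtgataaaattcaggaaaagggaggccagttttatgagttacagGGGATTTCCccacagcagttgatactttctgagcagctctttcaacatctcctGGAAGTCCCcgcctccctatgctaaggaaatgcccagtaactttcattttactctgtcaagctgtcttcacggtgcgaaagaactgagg
Pdgfd, chr9:6168236-6168535, plus strand: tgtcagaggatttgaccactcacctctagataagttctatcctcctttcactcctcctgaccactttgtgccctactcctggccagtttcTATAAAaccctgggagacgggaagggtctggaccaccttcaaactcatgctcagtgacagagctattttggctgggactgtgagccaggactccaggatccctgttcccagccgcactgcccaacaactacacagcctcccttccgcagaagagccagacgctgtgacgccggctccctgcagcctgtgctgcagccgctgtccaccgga
Yap1, chr9:8004547-8004846, minus strand: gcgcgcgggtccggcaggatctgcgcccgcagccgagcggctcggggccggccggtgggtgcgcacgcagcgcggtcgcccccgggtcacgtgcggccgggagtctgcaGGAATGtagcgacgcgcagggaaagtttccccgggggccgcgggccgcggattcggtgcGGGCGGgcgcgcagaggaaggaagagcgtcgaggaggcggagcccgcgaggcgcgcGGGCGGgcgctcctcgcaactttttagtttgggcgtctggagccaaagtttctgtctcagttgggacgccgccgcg

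RefSeq gives Casp4 a further start a few bases downstream, and only the first is shown. The Casp4 window held 2 kappa B matches, starting 92 and 39 bases before the start, a motif found in 5.82% of 32851 promoter windows. That of Pdgfd held 1 TATA box, in 13.6% of windows, 160 bases before the start. The Yap1 window held 2 GC boxes, a motif of 35.7% of windows, and 1 TEAD site, the letters bound by the partners of Yap1 itself, found in 14.7%. A STAT site (TTCNNNGAA), in 8.30% of windows, was searched as well and matched 2 times in the Casp12 window and 1 time in a window of Mtmr2. Among the other listed genes, a window of Birc2 also held a kappa B match and windows of Mtmr2 held TEAD sites. GC boxes lay in windows of both Birc2 and Mtmr2. The GC content was 42.0% for Casp4, 56.7% for Pdgfd and 74.0% for Yap1, against a median of 52.7% over all windows. These matches describe letters in the reference and say nothing of binding in these uteri.

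The values are MAS5 signals, linear and scaled by the authors to the same trimmed mean on each array, and differences are on the log2 scale with the standard error of a fit to all arrays. Of the 18 probe sets, 13 had a mean log2 signal over the 14 arrays at or above the median of all probe sets, the filter for the tests. The brightest probe set of each of the 10 genes was among them. The other 5 belong to Pdgfd, Gria4 (2 each) and Birc3. Folr4 itself was dim, with 6.14 to 70.2 on the mutant and 13.5 to 72.4 on the wild-type arrays, so its probe set did not check the genotype labels. Markers of uterine epithelium (6 of 6), stroma (6 of 6) and smooth muscle (5 of 5) and the steroid receptor genes Pgr and Esr1 passed the filter. The ratio of 3-prime to 5-prime actin signal, which rises as RNA degrades, lay at 1.54 to 3.12 in mutants with folinic acid, at 2.11 to 3.01 in mutants with saline, at 1.68 to 2.42 in wild type with folinic acid and at 1.72 to 3.64 in wild type with saline.

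**Figure D1:**
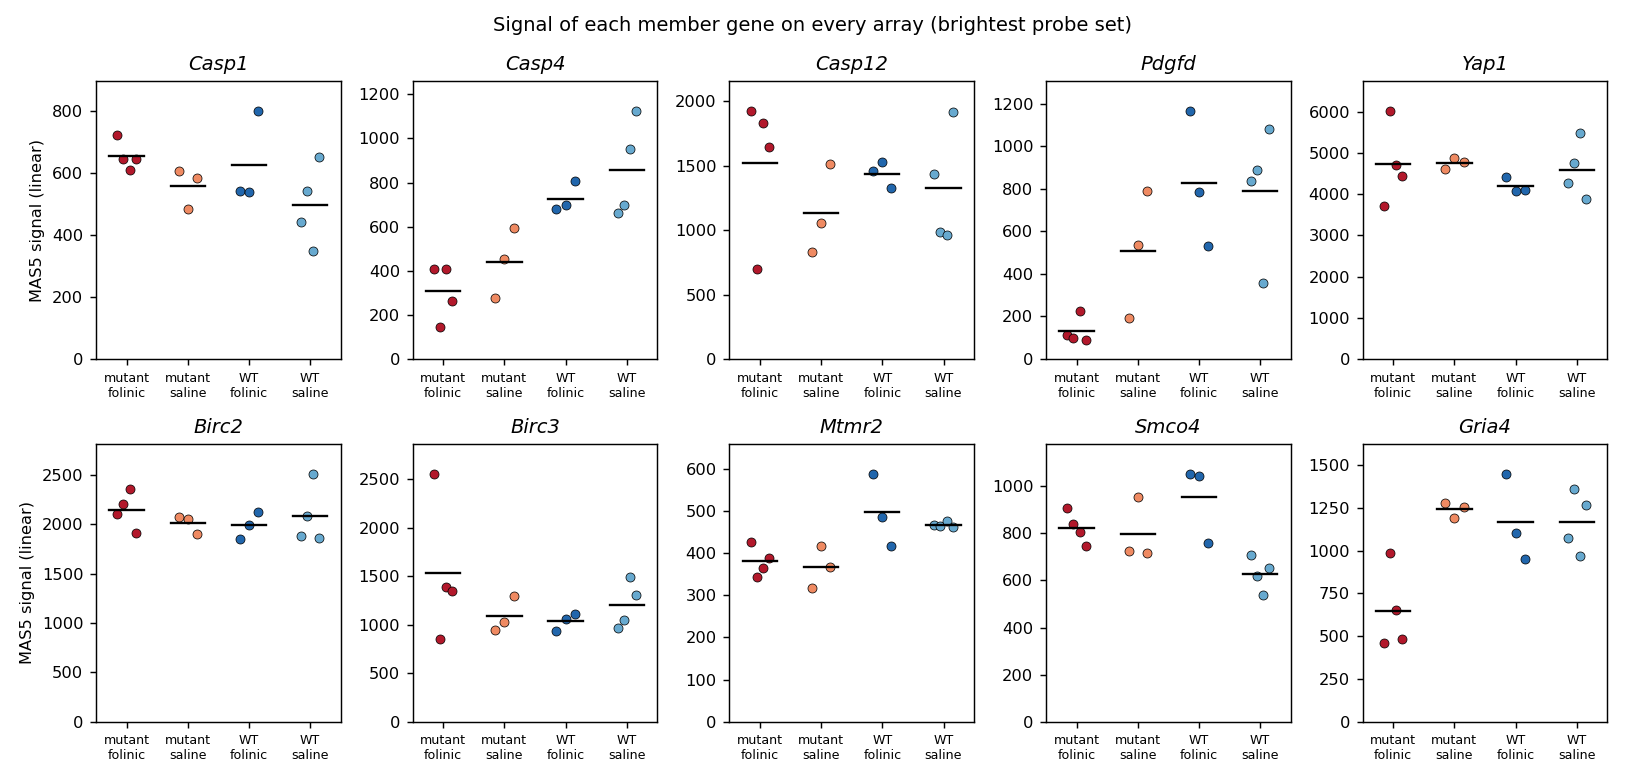
Signal on every array for the brightest probe set of each gene, on a linear axis from 0, with points for arrays and a line at each group mean. Casp4 lies between 146 and 592 in the 7 mutants and between 661 and 1125 in the 7 wild-type uteri, and Pdgfd lies at or below 224 in the 4 mutants given folinic acid.

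Casp4 gave lower signals in every mutant uterus than in any wild-type uterus. In mutants with folinic acid its signals were 408, 146, 409 and 264, and in mutants with saline 276, 455 and 592. In wild type with folinic acid they were 678, 696 and 808, and with saline 661, 696, 951 and 1125. The mean was 364 ± 147 (SD, n = 7) in mutants and 802 ± 175 (SD, n = 7) in wild type, a log2 difference of -1.18 ± 0.24 (SE) averaged over the injections, or 2.26-fold lower in mutants. It was -1.36 ± 0.34 under folinic acid and -0.99 ± 0.34 under saline, and -0.69 under saline without mutant saline replicate 1. In the order of differences averaged over the injections, Casp4 stood at place 5 from the lowest among 22519 probe sets, and at place 9 by size regardless of sign. The gene was listed with this comparison in view, so its places are a description only. As the tissue is a mixture, fewer cells that make a transcript and less transcript per cell cannot be told apart.

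The flanking caspase genes did not show this separation. Casp1 had 720, 644, 607 and 645 in mutants with folinic acid and 606, 482 and 582 in mutants with saline, against 542, 537 and 799 in wild type with folinic acid and 442, 540, 349 and 651 in wild type with saline. The groups overlapped, and the averaged log2 difference was 0.14 ± 0.15. Casp12, whose protein is found at the endoplasmic reticulum, was brighter, at 695 to 1926 in mutants and 965 to 1914 in wild type, with a difference of -0.12 ± 0.23. Its other probe set, from 810.0 to 1492 in mutants and 962 to 1556 in wild type, had a difference of -0.0020 ± 0.15. Both Casp12 probe sets varied widely within groups, with the same mutant array, folinic acid replicate 2, lowest in each.

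Markers of macrophages, cells in which inflammatory caspases are known to be made, varied between arrays. The summed signal of 10 markers ranged from 10819 to 50673 in mutants with folinic acid, from 10011 to 17595 in mutants with saline, from 13158 to 15354 in wild type with folinic acid and from 10946 to 23388 in wild type with saline. The highest value was that of mutant folinic acid replicate 1, where Casp4 had 408 and Casp1 had 720, and the other 13 arrays lay between 10011 and 23388. In replicates 2, 3 and 4 of that group Casp4 had 146, 409 and 264 at sums of 10819, 21050 and 16940. In mutants with saline it had 276, 455 and 592 at 10011, 13838 and 17595. In wild type with folinic acid it had 678, 696 and 808 at 13158, 13868 and 15354. With saline it had 661, 696, 951 and 1125 at 14426, 10946, 14592 and 23388. Within groups, lower Casp4 signals mostly stood beside lower sums. The sums of mutants and wild type overlapped. Of the 8 markers that passed the filter, 8 were higher in mutants under folinic acid, with a median difference of 0.53, and 7 were lower in mutants under saline, with a median of -0.37. Their part in the values of the caspase genes was not tested. The averaged Casp4 difference was -1.30 to -1.02 when any 1 array was left out.

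Pdgfd had the lowest difference of all 22519 probe sets in the averaged comparison of genotypes, and place 3 by size regardless of sign. As it was listed with this comparison in view, these places are a description only. The low values of Pdgfd came mainly from mutants given folinic acid. Its brightest probe set read 113, 101, 224 and 91.4 in those mutants, and 194, 536 and 790.3 in mutants with saline. Wild-type uteri had 1167, 785 and 533 with folinic acid and 839, 887, 359 and 1083 with saline. Under folinic acid no mutant reached the wild-type range, and the log2 difference was -2.67 ± 0.47, or 6.36-fold lower in mutants. Under saline 2 of 3 mutants lay inside the wild-type range, and the difference was -0.76 ± 0.47. That value was -0.17 without mutant saline replicate 1 and -1.19 without mutant saline replicate 3. The averaged difference was -1.71 ± 0.33.

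The other 2 probe sets of Pdgfd were dim. The one with the identifier 1426319_at had 52.0 to 64.8 in mutants and 96.5 to 133 in wild type with folinic acid, and 39.0 to 83.1 in mutants and 11.9 to 111 in wild type with saline. Apart from 1 array all its mutant signals lay below its wild-type signals. The exception was wild-type saline replicate 3, which also gave the lowest wild-type signal of the brightest probe set and had the highest actin ratio, 3.64. The third, 1446691_at, had 4.72 to 55.2 in mutants and 10.7 to 97.5 in wild type. Averaged differences of these probe sets were -0.44 ± 0.45 and -0.53 ± 0.55, from a fit without the filter, each about as large as its error or smaller. Under saline they were 0.035 ± 0.63 and 0.21 ± 0.78, opposite in sign to the brightest probe set. The part of RNA quality in these values was not tested.

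The 2 probe sets of Yap1 disagreed. The brightest, 1448363_at, had 3717 to 6026 in mutants and 3874 to 5481 in wild type, with an averaged difference of 0.11 ± 0.11. The dimmer 1416487_a_at had 169, 149, 229.6 and 191 in mutants with folinic acid and 189.8, 174 and 224 in mutants with saline. Its wild-type signals were 303, 290.5 and 256 with folinic acid and 284, 302, 349.9 and 311 with saline. No mutant array reached the wild-type range of this probe set, and its difference was -0.65 ± 0.13, or 1.57-fold lower in mutants, with -0.63 ± 0.19 under folinic acid and -0.67 ± 0.19 under saline. Over the 14 arrays the log2 signals of both probe sets had a Pearson correlation of -0.21. Affymetrix gives the suffix _a_at to probe sets that match several transcripts of 1 gene. Which part of Yap1 each reads was not analysed here.

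**Figure D2:**
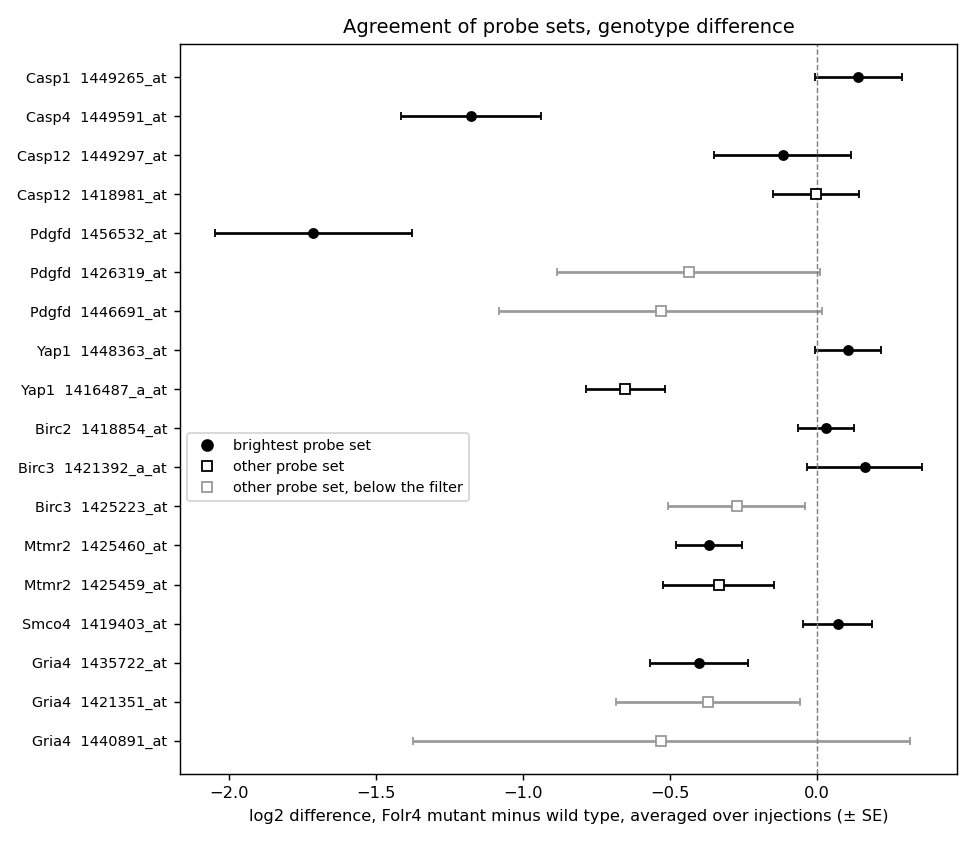
Log2 difference of mutant minus wild type, averaged over injections, for all 18 probe sets with standard errors (circles, brightest probe set of a gene; squares, others; grey, below the filter). Casp4 at -1.18, Pdgfd at -1.71 and 1 probe set of Yap1 at -0.65 stand lowest, and the Yap1 pair has opposite signs.

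Mtmr2, a lipid phosphatase of the myotubularin family, had a smaller difference that its probe sets shared. The brighter had 428, 344, 366 and 389 in mutants with folinic acid and 317, 416 and 368 in mutants with saline. It had 589, 487 and 417 in wild type with folinic acid and 466, 465, 477 and 463 in wild type with saline. Under saline the groups did not overlap, and under folinic acid 1 mutant and 1 wild-type array crossed. The averaged difference was -0.37 ± 0.11 for this probe set and -0.33 ± 0.19 for the other, which had 131 to 277 in mutants and 185 to 319 in wild type.

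Birc2 was bright and even, with 1903 to 2352 in mutants and 1853 to 2513 in wild type and a difference of 0.032 ± 0.096. Birc3 had 2556, 849, 1392 and 1348 in mutants with folinic acid and 949, 1027 and 1293 in mutants with saline, against 931 to 1114 in wild type with folinic acid and 966 to 1489 with saline. The value of 2556 came from mutant folinic acid replicate 1, the array with the highest sum of macrophage markers, and the part of those cells in it was not tested. The averaged Birc3 difference was 0.16 ± 0.20, and 0.022 without that array. Its dim probe set had a difference of -0.27 ± 0.23. Smco4, a small membrane protein gene on the far side of Folr4, had 717 to 952 in mutants and 537 to 1054 in wild type, with a difference of 0.072 ± 0.12.

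Gria4 encodes a subunit of AMPA-type glutamate receptors, best known from neurons. Its brightest probe set read 459, 985, 654 and 486 in mutants with folinic acid and 1279, 1192 and 1256 in mutants with saline. Wild-type uteri had 1451, 1102 and 952 with folinic acid and 1075, 1361, 968 and 1264 with saline. The averaged difference between genotypes was -0.40 ± 0.17, with -0.90 ± 0.24 under folinic acid and 0.10 ± 0.24 under saline. Of 5 neuronal markers none passed the filter. Under folinic acid their dim summed signal was 116 to 171 in mutants and 177 to 212 in wild type, without overlap. With saline it was 82.0 to 178 in mutants and 123 to 262 in wild type, with overlap. The part of nerve cells in the Gria4 values was not tested. The dim Gria4 probe sets had averaged differences of -0.37 ± 0.31 and -0.53 ± 0.85.

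Across the kept probe sets of the 10 genes, 2 of 13 had no overlap between the 7 mutant and 7 wild-type arrays, Casp4 and the dimmer Yap1 probe set, both lower in mutants. Over all kept probe sets the share without overlap was 0.0266%. Under saline 4 of 13 had no overlap, against 4.42% of all kept probe sets: these were Casp4, the dimmer Yap1 probe set, Mtmr2 and, with higher signals in mutants, Smco4. Under folinic acid 3 of 13 had none, against 4.94%: Casp4, Pdgfd and the dimmer Yap1 probe set. Since the genes were listed with this comparison in view, the counts describe the list only. By their brightest probe sets 5 genes were above 0 and 5 below, with a median difference of -0.041, beside -0.017 over all kept probe sets. In genes with several probe sets, 6 of the 8 others had the sign of the brightest in the averaged comparison, 7 under folinic acid and 3 under saline.

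The genes between Gria4 and Smco4, the outermost of the list in the gene order of the reference, were taken as a segment. It holds 132 annotated genes, of which 54 had a probe set with a single symbol. Outside the 10 listed genes, 42 kept probe sets of 25 genes had a median difference of -0.0070. Of the 77 probe sets outside the list, dim ones included, 0 were without overlap between genotypes, against 0.0377% of all 45037. With so small a share, and the 10 genes taken out for their genotype signals, this count cannot show whether the remaining genes differ. For the whole segment, the 10 genes included, the median difference was -0.011 over 55 kept probe sets, and its median size regardless of sign was 0.11, beside 0.088 in the rest of chromosome 9 and 0.090 over all kept probe sets. Of these 55, 3.64% were without overlap, both of them probe sets of the listed genes. Without the 10 genes, which were taken out for their genotype signals, the median size was 0.063, a value that this removal lowers. Within the segment, the progesterone receptor gene Pgr had 6174 to 17432 in mutants and 7048 to 14519 in wild type, with a difference of 0.11 ± 0.19. The membrane channel gene Panx1 (0.11 ± 0.12) and the Hippo pathway gene Amotl1 (0.015 ± 0.10) lie nearer to Folr4. Chosen after their values were seen, the neighbour Gpr83 had -0.43 ± 0.48, the matrix protease gene Mmp7 had -0.68 ± 1.21 and Cfap300 had 0.50 ± 0.22. Chosen in the same way, a probe set of Arhgap42 below the filter had -1.23 ± 0.43, while the brightest of that gene had -0.14 ± 0.14.

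**Figure D3:**
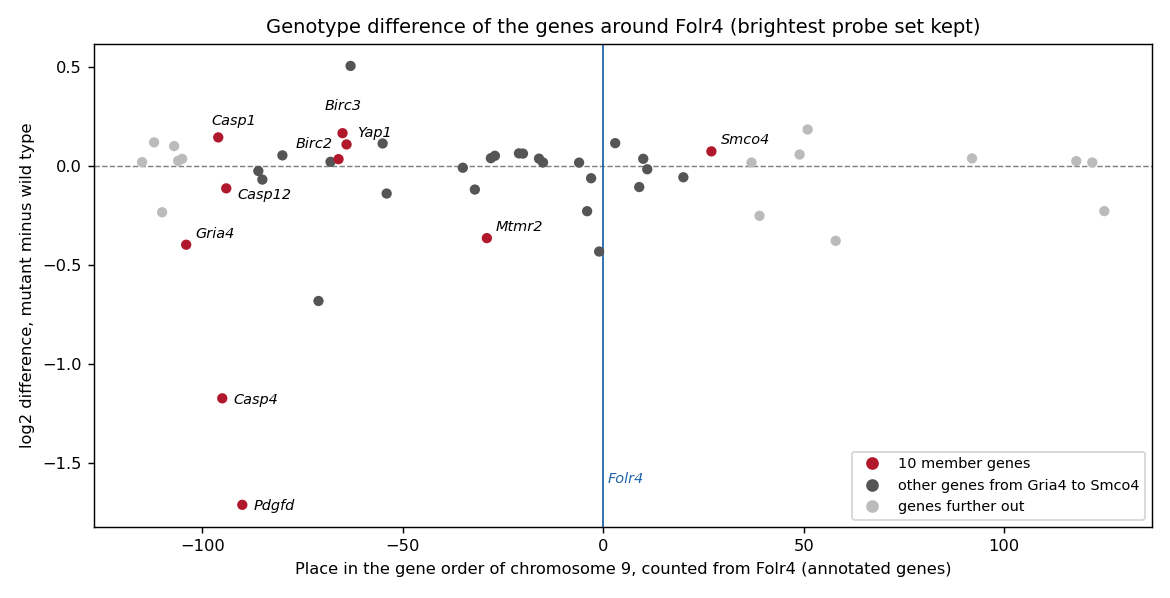
Log2 difference of mutant minus wild type, averaged over injections, against the place of each gene in the order of chromosome 9 counted from Folr4, for the brightest kept probe set of each gene. Casp4 and Pdgfd at -1.18 and -1.71 lie beside genes near 0, such as Casp1 at 0.14 and Casp12 at -0.12. Gria4, at the edge of the segment, is at -0.40.

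The response to folinic acid was tested within and across genotypes. With limma 0 of 13 kept probe sets of these genes passed an adjusted p of 0.05 in mutants, where 0% of all kept probe sets passed. At an unadjusted p under 0.05 there were 2 of 13, against 12.8% of all. In wild type 0 of 13 passed (background 0%), with 1 of 13 at an unadjusted p under 0.05, against 2.71% of all. Averaged over genotypes 0 of 13 passed (background 0.00444%), and 3 of 13 had an unadjusted p under 0.05, against 9.21%. For the interaction 0 of 13 passed (background 0%), with 3 of 13 at an unadjusted p under 0.05, against 4.9%.

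Gria4 had the smallest p of the 10 genes in mutants. The 4 mutants given folinic acid lay between 459 and 985, and the 3 given saline between 1192 and 1279, with no overlap. The log2 difference was -1.01 ± 0.24, or 2.02-fold lower after folinic acid, with an adjusted p of 0.126. Without mutant folinic acid replicate 2, the array at 985, it was -1.24 with an adjusted p of 0.0164, and with array weights -1.13 with an adjusted p of 0.04997. Over all settings tried the adjusted p lay between 0.0164 and 0.350. In wild type the difference was -0.0082 ± 0.24 (adjusted p = 0.999995), and the interaction was -1.004 ± 0.33 (adjusted p = 0.905). The dim probe sets gave -0.66 ± 0.44 and 1.01 ± 1.20 in mutants, the first with the sign of the bright one and the second without it.

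Pdgfd was at 91.4 to 224 in mutants with folinic acid and at 194 to 790.3 in mutants with saline, with overlap at 1 array on each side. The difference was -1.81 ± 0.47 (adjusted p = 0.157), and it ranged from -2.39 without mutant saline replicate 1 to -1.38 without mutant saline replicate 3. In wild type it was 0.10 ± 0.47 (adjusted p = 0.999995), and the interaction was -1.91 ± 0.67 (adjusted p = 0.905). This comparison shares the mutant folinic acid arrays with the comparison of genotypes under folinic acid, so the low values in both are those of the same 4 arrays.

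Of the cell markers, those of stroma, named after all sums were seen, had sums that separated the injections. The summed signal of 6 stromal markers was 76447 to 77788 in mutants with folinic acid and 90198 to 111352 in mutants with saline, and 75243 to 79424 in wild type with folinic acid and 91551 to 102055 in wild type with saline, without overlap within either genotype. Among all kept probe sets, 10.3% had no overlap between injections in mutants and 4.96% in wild type. The median difference of the stromal markers was -0.50 in mutants and -0.30 in wild type, with 5 of 6 lower in each genotype. That of the 8 macrophage markers above the filter was 0.71 in mutants and -0.081 in wild type. The sums of macrophage, epithelial, smooth muscle and endothelial markers overlapped between injections in each genotype. The dim neuronal sums overlapped between injections as well. None of these markers passed an adjusted p of 0.05 in a folinic acid test. Their part in the values of Gria4 and Pdgfd was not tested.

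Smco4 was higher in wild type after folinic acid, with 1054, 1043 and 760.3, than with saline, at 706, 619, 537 and 652, without overlap. The difference was 0.59 ± 0.17 with an adjusted p of 0.999995, and it was 0.055 ± 0.17 in mutants (adjusted p = 0.924). The interaction was -0.54 ± 0.23 (adjusted p = 0.905). Casp1 had 607 to 720 in mutants with folinic acid, above the 482 to 606 of mutants with saline, with a difference of 0.24 ± 0.21 (adjusted p = 0.676) in mutants and 0.35 ± 0.21 (adjusted p = 0.999995) in wild type. Groups without overlap were found in 2 of 13 kept probe sets in mutants (Gria4 and Casp1), against 10.3% of all kept probe sets. In wild type it was 1 of 13 (Smco4), against 4.96%.

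Casp4 differed by -0.57 ± 0.34 (adjusted p = 0.504) after folinic acid in mutants, with -0.25 without mutant folinic acid replicate 2, -0.33 without mutant saline replicate 3 and -0.87 without mutant saline replicate 1. In wild type the difference was -0.21 ± 0.34 (adjusted p = 0.999995). Casp12 had 0.37 ± 0.33 in mutants (adjusted p = 0.684) and 0.18 ± 0.33 in wild type (adjusted p = 0.999995). When 1 array was left out these values ranged from 0.16, without mutant saline replicate 1, to 0.71, without mutant folinic acid replicate 2, and from 0.044, without wild-type saline replicate 3, to 0.37, without wild-type saline replicate 4. Birc3 had 0.40 ± 0.28 (adjusted p = 0.584) and -0.20 ± 0.28 (adjusted p = 0.999995). Without mutant folinic acid replicate 1 the Birc3 value in mutants was 0.11. The differences of Yap1, Birc2 and Mtmr2 by their brightest probe sets lay between -0.032 and 0.089 in mutants and between -0.12 and 0.076 in wild type.

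**Figure D4:**
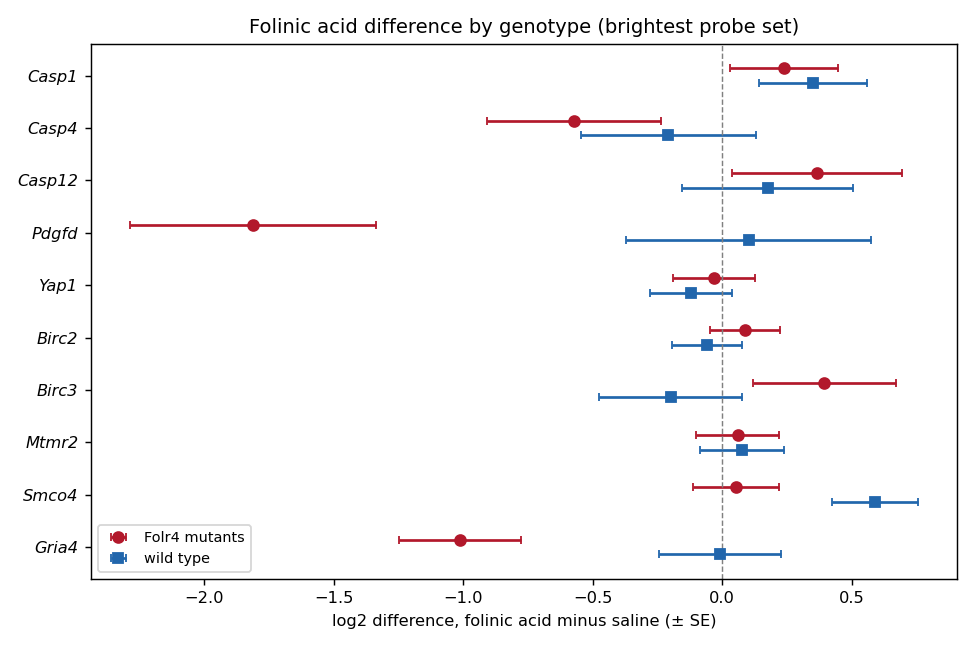
Log2 difference of folinic acid minus saline for the brightest probe set of each gene, in mutants (red circles) and wild type (blue squares), with standard errors. Pdgfd at -1.81 and Gria4 at -1.01 are lowest in mutants and near 0 in wild type, and Smco4 at 0.59 is highest in wild type. The gap between genotypes did not pass in any gene.

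Genes that act with the listed ones are given by the lists to which they belong. Of 24 genes of the inflammatory caspase pathway, 13 passed the filter, and 0 passed in any folinic acid test in either direction. Their median difference after folinic acid, averaged over genotypes, was 0.0047, beside 0.010 over all kept probe sets, and their median difference between genotypes was 0.054. The smallest p values belonged to Il1b, a substrate of Casp1, at 1.01 ± 0.52 (adjusted p = 0.578) and Ninj1, which ruptures the membrane of dying cells, at 0.28 ± 0.17 (adjusted p = 0.641). Il1b was at 1.88 ± 0.73 in mutants (adjusted p = 0.307) and 0.14 ± 0.73 in wild type (adjusted p = 0.999995). Its signal averaged 685 ± 940.0 in mutants with folinic acid (SD, n = 4) and 94.6 ± 30.5 in mutants with saline (SD, n = 3), so the first group varied widely, as its sum of macrophage markers did. The Casp4 substrate Gsdmd was at 0.038 ± 0.17 (adjusted p = 0.965).

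Of the other lists none had a gene that passed in the 4 tests in either direction. Of 9 PDGF genes 8 were measured above the filter, with averaged medians of -0.073 between genotypes and -0.035 after folinic acid. The genotype median was -0.33 under saline, with 7 of 8 lower, and 0.20 under folinic acid, with 5 of 8 higher. The folinic acid median was 0.20 in mutants, with 6 of 8 higher, and -0.31 in wild type, with 7 of 8 lower. After folinic acid, averaged over genotypes, Pdgfrl was at -0.27 ± 0.20 (adjusted p = 0.725) and Nrp1 at -0.21 ± 0.23 (adjusted p = 0.821). The receptor of Pdgfd, Pdgfrb, differed between genotypes by 0.025 ± 0.11. The Hippo list had 20 of 23 genes above the filter and medians of 0.026 between genotypes and 0.030 after folinic acid. Ajuba, a scaffold that binds the Lats kinases, was at 0.39 ± 0.12 (adjusted p = 0.248) and Tead2, a DNA-binding partner of Yap1, at -0.34 ± 0.14 (adjusted p = 0.481) after folinic acid. The Yap1 targets Ccn1 and Ccn2 differed between genotypes by 0.0062 ± 0.28 and 0.0068 ± 0.27.

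The list of inhibitor of apoptosis and tumour necrosis factor receptor genes had 20 of 24 above the filter, with medians of 0.0028 between genotypes and 0.050 after folinic acid. Nfkbia, the inhibitor of NF-kappaB, was at 0.32 ± 0.14 (adjusted p = 0.493) and the receptor gene Tnfrsf1a at 0.23 ± 0.10 (adjusted p = 0.523). Myotubularin and phosphoinositide genes, 12 of 12 above the filter, had medians of 0.013 and 0.088. The pseudophosphatase Sbf1 was at 0.24 ± 0.12 (adjusted p = 0.557) and the lipid kinase Pikfyve at 0.24 ± 0.15 (adjusted p = 0.664). Of 10 AMPA receptor genes 2 were above the filter, Grip1 (-0.55 ± 0.30, adjusted p = 0.605) and Gria3 (0.28 ± 0.19, adjusted p = 0.679).

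Patterns were also set against those of 19116 kept probe sets with a single symbol, by the Pearson correlation of log2 signals over the same 14 arrays. The gene most like Casp4 was Yap1 through its dimmer probe set (r = 0.87), followed by the cell-division gene Iqgap3 (0.85) and the replication gene Gins2 (0.83). For Pdgfd these were the noradrenaline transporter gene Slc6a2 (0.90), the neuronal microtubule gene Map2 (0.89) and C1qtnf12 (0.89). Casp1 was closest to Lrrc8c (0.85), Erap1 (0.83) and Arid1b (0.82), and Casp12 to Arl1 (0.93), Pml (0.92) and Ctsh (0.92). The bright probe set of Yap1 was closest to Nsd1 (0.93), Arpc5l (0.92) and Ago2 (0.90). These are the highest of many values over few arrays, in which genotype, injection and array quality are shared. Casp4 and Yap1 were listed with the comparison of genotypes in view, so their correlation is not independent of that choice. Iqgap3 and Gins2 also differed between genotypes, by -0.79 and -0.52.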

How the data were processed

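Per the labels' protocols, total RNA of whole uterus was labelled with biotin in the Affymetrix one-cycle assay. The deposited table gives each probe set 1 linear intensity signal on each array. Per the submitters' processing notes the authors used MAS5, and every array had the same 2% trimmed mean (500.002 to 500.003). Genome build and raw images were not used here.

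After 64 controls were left out, 45037 probe sets remained. Signals were raised to a floor of 1 (0.505% of values), put on the log2 scale and kept when their mean was in the upper 50 percent (22519 probe sets, a signal of 134 or more). Symbols came from GEO's platform annotation, updated by gene identifier to RefSeq GRCm38.p6, which also gave gene order and promoter sequences. The differences were fitted with limma 3.58.1 in R 4.3.3 as 4 group means (10 residual and 5.04 prior degrees of freedom, variance trend), two-sided, with Benjamini-Hochberg adjustment over all kept probe sets and a threshold of 0.05. Probe sets below the filter took their values from the same fit on all 45037.

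The genes, lists and tests were chosen with earlier results of these data known. Named in the text are all 10 genes with every probe set, list genes past the threshold or the 2 with the smallest p for folinic acid averaged over genotypes, segment genes without overlap between genotypes (none outside the 10), and the 3 closest patterns. Other genes named were chosen after their values were seen. The labels call replicates biological, and n counts arrays. Their number limits the precision. Wild-type saline replicates 2 and 3 share a title number, as do wild-type folinic acid replicates 1 and 2, while no mutant arrays do. Whether those uteri are related is not stated. The fit was also run on simulated data with independent noise and no odd array. That run says nothing of single arrays that move the counts. Alternatives are given at the end.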

Additional observations from a re-analysis of the deposited data

Results flagged for a closer look

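Among the 36 groups of 4 arrays examined for the 18 probe sets, 1 array stood far from the others of its group. Pdgfd had a signal of 224 in mutant folinic acid replicate 3, while the other 3 mutants with folinic acid lay between 91.4 and 113. Chance alone gives such a gap in about 1 of 20 groups. The array lay nearer to wild type than the rest of its group did, and without it the genotype difference under folinic acid was -2.96 in place of -2.67.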

How the results depend on the processing

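In the folinic acid comparison averaged over genotypes 1 probe set of all those kept passed. That number became 245 with array weights and 0 with arrays of shared title numbers averaged, and ranged from 0 to 150 when 1 array was left out, highest without mutant folinic acid replicate 2 and 118 without wild-type folinic acid replicate 3. In mutants it was 0, with 103 under array weights, 2 without a filter, and 0 to 662 when 1 array was left out, 662 without mutant folinic acid replicate 2. No other array moved the count in mutants. In wild type and for the interaction it was 0 in all settings. The count of listed probe sets without overlap between genotypes stayed at 2 and was 3 without wild-type saline replicate 3, the added one being 1426319_at of Pdgfd.

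The replicate numbers are shared by groups. Of 19 same-numbered pairs, 6 had a correlation of deviations over 0.1 (range -0.34 to 0.35). The mean was 0.020 in same-numbered pairs and -0.0065 in other pairs. Of 14 arrays, 8 had as their closest array of another group one of their own number, and whether this exceeds chance was not tested. With the replicate block the counts were 1 for folinic acid averaged over genotypes and 0 in mutants, in wild type and for the interaction.

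Differences that no test called and that lie near 0 changed sign as follows, and the cause was not tested. Yap1 in mutants was 0.0063 with quantile normalization and 0.019 with the replicate block. With the block the Casp12 interaction was -0.078. With array weights the interactions of Casp1 and Yap1 were 0.057 and -0.057, and the wild-type responses of Pdgfd, Birc2 and Gria4 were -0.058, 0.015 and 0.0030. With shared title numbers averaged, those of Pdgfd and Birc2 were -0.16 and 0.014, and the Mtmr2 interaction was 0.041. Leaving out 1 array gave ranges of -0.24 to 0.38 (Pdgfd), -0.11 to 0.036 (Birc2), -0.18 to 0.13 (Gria4) and -0.053 to 0.20 (Mtmr2) in wild type. In mutants they were -0.16 to 0.076 (Yap1), -0.042 to 0.16 (Mtmr2) and -0.016 to 0.19 (Smco4). Averaged over genotypes they were -0.010 to 0.062 (Birc2) and -0.043 to 0.22 (Birc3). For the interaction they were -0.26 to 0.077 (Casp1), -0.015 to 0.53 (Casp12), -0.035 to 0.20 (Yap1) and -0.14 to 0.11 (Mtmr2). Gria4 averaged over genotypes passed without mutant folinic acid replicate 2 (-0.62, adjusted p = 0.0496) and had -0.51 with an adjusted p of 0.315 with all arrays, within a range of 0.0496 to 0.651 over the settings. Quantile normalization, another offset, stricter or no filter, robust variances, variances without a trend and fits of only the groups compared moved no other call of the 10 genes. Dim probe sets limit what can be said of Folr4 and of the second probe sets of Pdgfd and Gria4.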
